A study of Mus musculus with 13 samples.

Results

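The change from the naive state to day 3 of stimulation was followed in wild-type P14 CD8+ T cells, on the 6 arrays labelled as wild-type naive or wild-type day 3 effector cells, out of 13 arrays in the series. In P14 mice a T cell receptor transgene gives most CD8+ T cells a common specificity, and all mice had the C57Bl/6 background. Per the labels' protocols, CD8+ T cells were enriched by magnetic negative selection, in which unwanted cells are labelled and held back. The 2 naive arrays are of cells at day 0, without stimulation. The 4 day 3 arrays are of cells grown for 3 days on plates coated with antibodies to CD3 and CD28, with 100 U/ml of recombinant human IL-2. These antibodies trigger the receptor complex directly, and the labels name no antigen or antigen-presenting cell for the culture. No cells cultured without the antibodies are among the arrays, so stimulation and time in culture cannot be told apart. The other 7 arrays are of P14 cells from Batf-/- mice, 3 naive and 4 at day 3, and share with the wild type the transgene, the background and the culture.

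All probe sets assigned to a single gene symbol were used, 34945 of 45101, and they name 18193 genes, each represented by its brightest probe set on average across the 13 arrays. Values are log2 intensities. A change is the day 3 mean minus the naive mean, resting throughout on 4 day 3 and 2 naive arrays, and is given with its standard error (SE). The spread behind SE and p-values is pooled over all 13 arrays. The median standard deviation was highest in the Batf-/- naive group, at 0.13 against 0.075 to 0.079 in the other groups. A gene is said to have risen or fallen where the adjusted p was below 0.05 (limma moderated test, two-sided, Benjamini-Hochberg over all 18193 genes). The labels do not say whether the arrays of a group are of separate mice or cultures, and p-values therefore reflect only how much these arrays vary. The dimmest 40% of probe sets lay below a log2 intensity of 4.72, an intensity of 26.3. Where a group mean lay below that line, the difference is in measured intensity and is a lower bound of the change in RNA.

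A naive CD8+ T cell is small and rarely divides. It recirculates through lymphoid organs and is kept alive by interleukin 7 and self peptides. Signals through the T cell receptor, CD28 and the IL-2 receptor make it grow, switch to aerobic glycolysis, copy its DNA, divide rapidly and acquire the means to kill target cells, while the receptors and transcription factors of the resting state are turned down. The earliest transcripts of this response, such as those of the Fos and Egr families, appear within the hour and are short-lived.

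The arrays were alike in brightness, with median intensities of 31.5 to 32 on the 6 wild-type arrays. Over all genes, the log2 intensities of the naive arrays correlated with each other at 0.9962 and those of the day 3 arrays at 0.9973 to 0.9984, while naive and day 3 arrays correlated at 0.9553 to 0.9587. The median standard deviation of genes above the dim line was 0.075 over the 2 naive and 0.079 over the 4 day 3 arrays. A median from 2 arrays tends to come out lower than a median from 4, so these values do not show equal spread. The number of arrays limits the precision, above all that of the naive mean.

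Rises of at least 4-fold and 8-fold outnumbered falls of that size. Of 18193 genes 4081 rose (22.4%) and 4177 fell (23.0%). The counts of risen and fallen genes in each list below are to be read beside these shares. At least a 2-fold rise was seen for 1092 genes (6.0%) and at least a 2-fold fall for 980 genes (5.39%), at least 4-fold for 379 and 210, at least 8-fold for 125 and 88, and at least 16-fold for 34 and 36. In a test against a 2-fold change, 653 genes rose and 417 fell. The arrays had been normalised together and had nearly the same median, so the balance of rises and falls over all genes is partly set by that step. All 4 day 3 arrays lay above both naive arrays for 5516 genes (30.3%) and below both for 5088 (28.0%). A lack of overlap in any gene named below is to be read beside these shares, as it is common. The median change over all genes was 0.05, with quartiles of -0.22 and 0.24. Of the risen genes 315 crossed the dim line upwards and 277 of the fallen genes crossed it downwards. A further 6142 genes lay below the line in both states, and 823 of these passed.

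**Figure D1:**
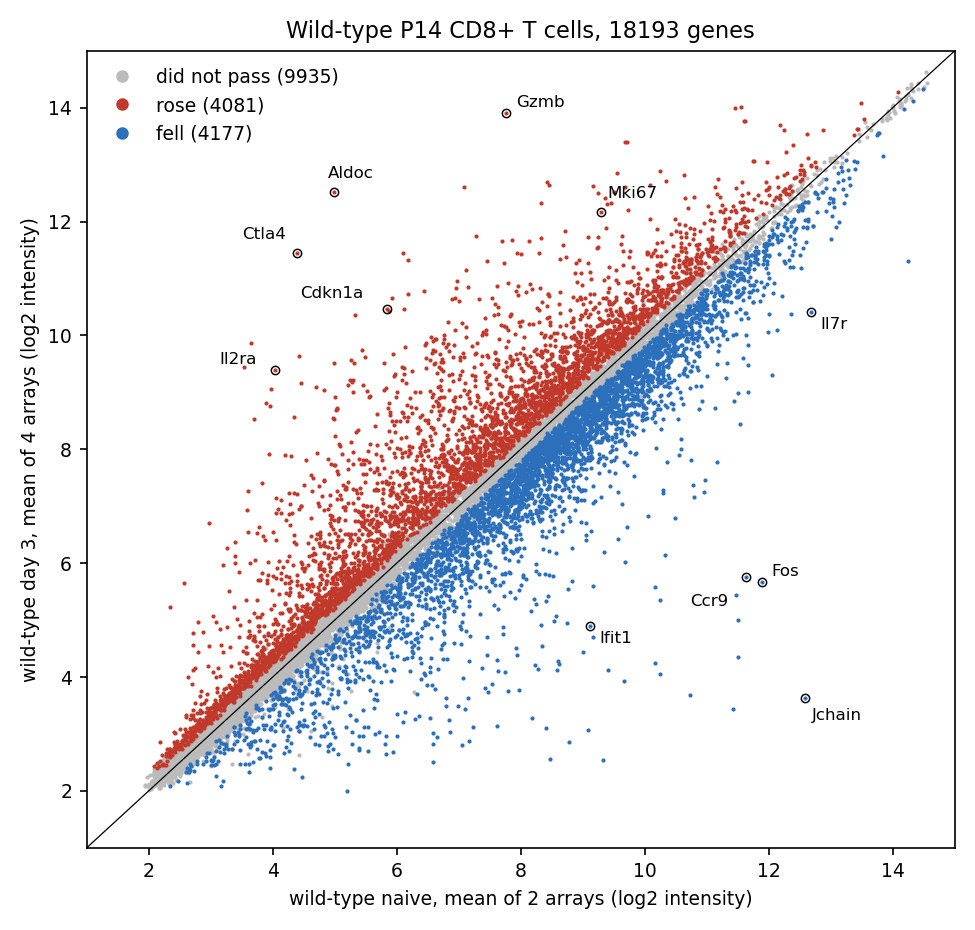
Mean log2 intensity of 18193 genes in wild-type naive cells (x axis, 2 arrays) and at day 3 (y axis, 4 arrays), with the line of equal intensity. Red points rose (4081 genes), blue points fell (4177) and grey points did not pass, and circles mark 11 genes described in the text, of which Aldoc and Ctla4 lie farthest above the line and Jchain farthest below it.

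Among the 15 named genes with the largest rises were receptors, an effector protease and enzymes of carbohydrate metabolism. Aldoc, an aldolase of glycolysis, was at 4.78 and 5.19 on the naive arrays and at 12.47, 12.59, 12.58 and 12.44 on the day 3 arrays. Ctla4, the inhibitory receptor that competes with CD28 for its ligands, was at 4.51 and 4.28 in naive cells and at 11.60, 11.38, 11.51 and 11.33 at day 3. In both genes the states were far apart and the arrays of a state close together. The rise was 7.53 ± 0.15 for Aldoc (adjusted p = 1.58e-12) and at least 7.05 ± 0.13 for Ctla4 (adjusted p = 8.73e-13), whose naive mean lay below the dim line.

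Ak4, an adenylate kinase of mitochondria, rose from 3.44 and 3.85 to 10.06, 9.90, 9.98 and 9.54. Il2ra, the alpha chain that gives the IL-2 receptor its high affinity, rose from 4.00 and 4.07 to 9.46, 9.37, 9.36 and 9.41. Egln3, an oxygen-sensing prolyl hydroxylase, rose from 6.03 and 6.17 to 11.54, 11.47, 11.57 and 11.22. Bnip3, a mitochondrial protein of mitophagy and cell death, rose from 7.0 and 7.17 to 12.66, 12.65, 12.70 and 12.39. Day 3 replicate 4 was the lowest array of the 4 for Ak4, Egln3 and Bnip3, and each gene stayed far above its naive values on it. The changes were 6.22 ± 0.34, 5.36 ± 0.10, 5.35 ± 0.11 and 5.52 ± 0.10, and for Ak4 and Il2ra these are lower bounds.

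The collagen-modifying enzymes Plod2 (5.19 ± 0.15) and P4ha2 (4.92 ± 0.20) rose from naive values of 4.35 and 4.52, and of 3.73 and 4.08. At day 3 Plod2 was at 9.76, 9.75, 9.68 and 9.31 and P4ha2 at 8.95, 8.88, 8.98 and 8.47. The transcription factor gene Bhlhe40 was at 6.35 and 6.03 in naive cells and at 11.38, 11.45, 11.46 and 10.99 at day 3, and Tnfrsf9, the costimulatory receptor 4-1BB, at 6.31 and 5.55 against 10.78, 10.70, 10.78 and 10.35. Fam183b rose from 4.01 and 3.94 to 9.07, 9.10, 9.16 and 8.92, and Tspoap1 from 5.37 and 5.30 to 10.36, 10.48, 10.42 and 10.14. Nrn1, which codes for a membrane-anchored neuritin, rose from 4.04 and 3.37 to 8.53, 8.62, 8.55 and 8.42, and the lipoprotein receptor gene Vldlr from 3.79 and 4.11 to 8.80, 8.85, 8.88 and 8.51. Only genes whose 2 states did not overlap could enter the largest rises and falls, so the lack of overlap here is by selection. Day 3 replicate 4 was again the lowest day 3 array in each of these genes. Averaged over every probe set of the gene, the rise was smaller for Ak4 (2.70) and Vldlr (3.02).

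The 15 named genes with the largest falls came mostly from other lineages than T cells. Jchain, the joining chain of antibodies, was at 12.39 and 12.78 in the naive preparations and at 3.59, 3.54, 3.80 and 3.64 at day 3, a fall of at least 8.94 ± 0.13 (adjusted p = 1.64e-13). The antibody genes Iglv1 (10.07 and 11.39, against 3.55, 3.60, 3.57 and 3.99) and Igha (11.39 and 11.57, against 5.20, 5.59, 5.40 and 5.56) and 2 kappa light chain variable genes (-5.92 and -5.91) fell with it. So did the B cell surface gene Ms4a1 (10.14 and 9.21, against 3.75, 4.05, 4.06 and 3.86) and the class II histocompatibility gene H2-Aa of antigen-presenting cells (11.55 and 11.47, against 4.01, 4.51, 4.34 and 4.57). Car1 and Car2, carbonic anhydrases that are abundant in red blood cells, were at 11.12 and 11.72 and at 11.16 and 11.84 in naive preparations. At day 3 Car1 was at 3.77, 3.48, 2.79 and 3.69 and Car2 at 4.99, 5.11, 4.88 and 5.03. The lysozyme gene Lyz1 (9.51 and 9.13, against 2.55, 2.54, 2.45 and 2.63) and the macrophage gene Mpeg1 (-5.91) mark phagocytes, and Ppbp (8.66 and 9.52, against 2.78, 2.94, 3.18 and 3.39) marks platelets. Igkv and Iglv probe sets can bind transcripts of related antibody segments, so these names are uncertain.

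The 3 remaining genes are T cell genes or genes known in T cells. Fos, a subunit of the AP-1 transcription factor, was at 11.88 and 11.91 in naive cells and at 5.67, 5.56, 5.84 and 5.62 at day 3 (-6.22 ± 0.13). Ccr9, the receptor for the gut and thymus chemokine Ccl25, was at 11.83 and 11.42 against 5.72, 5.68, 5.69 and 5.89 (-5.88 ± 0.17). Slc15a2, a transporter of small peptides, was at 10.49 and 9.99 against 3.78, 4.18, 4.44 and 3.86 (-6.18 ± 0.22). Averaged over every probe set, the change was -3.89 for Ccr9 and -2.15 for Slc15a2, and that of Lyz1 was -4.38.

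Because so many fallen genes belong to other cells, the preparations were described with marker lists, each summed as linear intensity over its measured members. The lists hold Jchain, Ms4a1, Car1, Lyz1 and Ppbp, which are among the largest falls above, and bright genes weigh most in a sum. The lists of plasma cells, B cells, erythroid cells, monocytes and platelets are therefore no independent check of those falls. The 8 measured CD8 T cell markers summed to 40552 and 43718 in naive preparations and to 36662 to 38888 at day 3. Of these, Cd8b1 (-0.74), Cd8a (-0.44) and Cd247 (-0.26) fell and 5 did not pass. The 4 CD4 T cell markers were low in both states, at 126 and 133 against 158 to 175. All 8 lay above the dim line in both states, so the markers of the labelled cell type were present in each. The count of falls in it was 1 with the replicate number as a block, with probe sets of a gene averaged, and without naive replicate 1 or day 3 replicate 1, 2 or 3.

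RNA of several other cell types was present in the naive preparations and much lower at day 3. Plasma cell markers summed to 7157 and 8330 in naive preparations and to 189 to 208 at day 3 (5 of 6 fell), and B cell markers to 1485 and 2330 against 346 to 406 (5 of 9 fell). Monocyte and macrophage markers summed to 1541 and 1649 against 323 to 373 (5 of 8 fell), neutrophil markers to 565 and 679 against 156 to 166 (3 of 9 fell), and NK cell markers to 989 and 1073 against 137 to 167 (4 of 4 fell, led by Tyrobp at -3.57). Erythroid markers summed to 2388 and 3659 against 63.7 to 74.8 (4 of 5 fell). Platelet markers summed to 1207 and 2004 against 1053 to 1156, so naive replicate 1 lay close to the day 3 arrays. Of these 7 markers 5 fell and 1 rose at least 2-fold. The sums of markers of stroma and endothelium (401 and 409 against 275 to 300) and of dendritic cells (365 and 402 against 309 to 366) moved less. Of the 7 dendritic cell markers, however, 4 fell, 3 of them at least 2-fold, with a median change of -0.94. The 1 that rose, Batf3 (1.26), is also counted among the bZIP factors below. For plasma, erythroid, NK, neutrophil, monocyte and B cell markers every naive array lay above every day 3 array. In these bulk samples fewer cells of a type and less RNA per cell cannot be told apart. What part this RNA had in the falls reported here was not tested. Without naive replicate 2 the falls were 3 for plasma cells and 3 for platelets, and without naive replicate 1 they were 1 for neutrophils. With the wild-type arrays alone they were 6 for neutrophils.

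**Figure D2:**
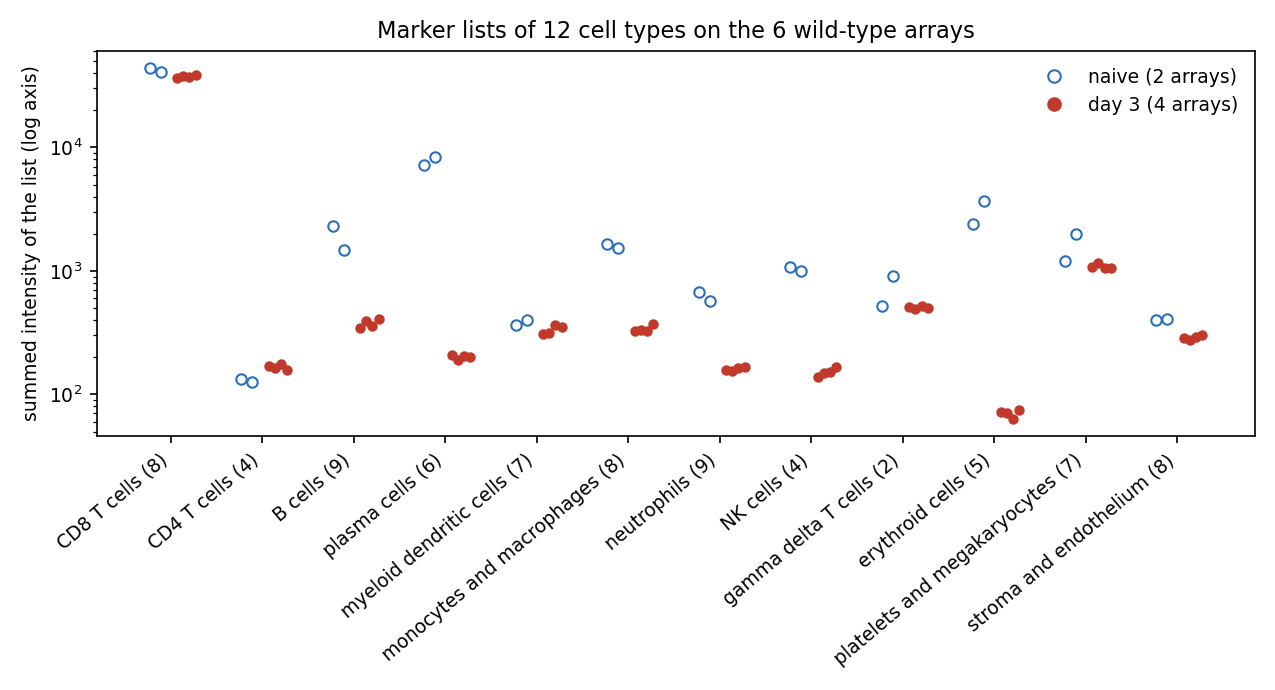
Summed linear intensity (log axis) of marker lists for 12 cell types on the 6 wild-type arrays, with the number of measured genes in brackets, open circles for the 2 naive and filled circles for the 4 day 3 arrays. The CD8 T cell list lies at 40552 and 43718 in naive cells and at 36662 to 38888 at day 3, and the plasma cell list falls from 7157 and 8330 to 189 to 208.

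The machinery of DNA replication rose without exception. Of 29 measured genes of licensing and fork progression 29 rose, 19 of them at least 2-fold, with a median change of 1.34 against 0.05 over all genes. Cdc45 and Gins2, parts of the replicative helicase, rose by 2.87 ± 0.28 and 2.34, the licensing factor gene Cdc6 by 2.64 ± 0.37 and the DNA ligase gene Lig1 by 2.18. Cdc6 was at 6.77 and 7.36 in naive cells and at 9.69, 9.66, 9.71 and 9.74 at day 3. The smallest rise was that of Gins3 (0.36). The change of Cdc45 was 1.55 and that of Gins3 0.60 with probe sets averaged.

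Mitosis genes rose more. Of 32 measured genes 31 rose, each of them at least 2-fold, and the list median was 3.06. Mki67, the gene of the proliferation marker Ki-67, was at 9.12 and 9.49 in naive cells and at 12.19, 12.21, 12.10 and 12.13 at day 3 (2.85 ± 0.29, adjusted p = 2.84e-06). The kinase genes Aurkb (3.87 ± 0.33) and Bub1 (3.85 ± 0.40) and the spindle genes Nusap1 (3.53) and Prc1 (3.43) rose most. In none of these did the states overlap, and over all genes all day 3 arrays lay above all naive arrays in 30.3%. The securin gene Pttg1 fell slightly (-0.27, adjusted p = 0.0305), and that call was lost without naive replicate 2 or day 3 replicate 1, 2 or 3.

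Promoters of these lists were searched for the letters of known cell cycle elements, in a window from 250 bases before to 50 after the start of the gene in RefSeq (GRCm38.p6). E2F sites are bound by the factors that open the S phase. The letters TTTGGCGC, TTTCCCGC, TTTGCCGC or TTTCGCGC, on either strand, stood in 11 of 23 replication gene promoters (47.8%) and in 2.26% of all 32851 promoters. The list is counted by gene, and of all 14452 measured genes with a promoter 3.81% held them. Of genes that rose at least 2-fold, 7.75% held them, and of genes that fell at least 2-fold 2.93%. The promoter of Cdc6 is shown because Cdc6 had the largest rise among the replication genes with a match, with the match in capitals (chr11:98907901-98908200, plus strand).

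Cdc6: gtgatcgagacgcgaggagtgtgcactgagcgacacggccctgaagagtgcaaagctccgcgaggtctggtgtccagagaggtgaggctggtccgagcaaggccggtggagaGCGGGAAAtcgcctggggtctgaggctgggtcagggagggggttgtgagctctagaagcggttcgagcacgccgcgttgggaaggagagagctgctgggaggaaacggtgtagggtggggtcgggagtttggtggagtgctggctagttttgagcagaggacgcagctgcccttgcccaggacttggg

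The CHR element, TTTGAA on either strand, is the site through which the DREAM and MuvB complexes control mitosis genes. It stood in 20 of 26 mitosis gene promoters (76.9%) and in 17.9% of all promoters, and the CCAAT box, CCAAT on either strand, in 19 of 26 (73.1%) and in 37.4%. By gene, 15.7% of all measured genes held TTTGAA, against 20.1% of those that rose at least 2-fold and 16.1% of those that fell at least 2-fold. CCAAT was held by 42% of all, 51.8% of risen and 40.5% of fallen genes. The promoters of Prc1 (chr7:80294201-80294500, plus strand) and of the cyclin gene Ccnb2 (chr9:70421505-70421804, minus strand), which rose by 3.43 and 3.38 and had the largest rises among the mitosis genes with TTTGAA, are printed with TTTGAA in capitals.

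Prc1: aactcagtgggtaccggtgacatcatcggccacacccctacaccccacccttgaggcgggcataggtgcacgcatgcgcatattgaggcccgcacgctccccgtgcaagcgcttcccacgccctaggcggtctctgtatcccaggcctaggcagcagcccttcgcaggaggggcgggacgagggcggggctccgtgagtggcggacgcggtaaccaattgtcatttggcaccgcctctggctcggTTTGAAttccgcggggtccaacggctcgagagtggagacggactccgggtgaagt
Ccnb2: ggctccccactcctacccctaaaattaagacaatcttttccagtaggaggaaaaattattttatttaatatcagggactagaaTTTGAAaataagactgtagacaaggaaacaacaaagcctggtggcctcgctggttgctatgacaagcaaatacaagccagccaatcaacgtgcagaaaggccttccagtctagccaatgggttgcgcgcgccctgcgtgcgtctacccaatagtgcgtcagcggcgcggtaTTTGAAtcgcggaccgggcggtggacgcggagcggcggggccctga

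In Prc1 the match lies 5 bases before the start of the gene, and Ccnb2 has 2 matches, the outer of them 167 bases before it. A match describes the letters of the window only and shows neither binding nor use.

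Regulators of G1 moved in both directions. Of 27 measured genes 18 rose and 4 fell. Cdkn1a, the gene of the cell cycle inhibitor p21, rose most, from 5.94 and 5.75 to 10.58, 10.50, 10.55 and 10.20 (4.61 ± 0.14), and Cdkn2c, the inhibitor p18, rose by 2.12 ± 0.08. Ccne2, an E cyclin, and the activating factor E2f2 rose by 2.52 and 2.42. The D cyclins Ccnd2 (-1.09) and Ccnd1 (-0.96) fell, as did Myc and its partner Max (-0.52). The change of Ccnd1 was -1.45 with probe sets averaged. Myc, which drives cell growth, was at 10.36 and 10.31 in naive cells and at 9.54, 9.43, 9.44 and 9.46 at day 3 (-0.87 ± 0.08, adjusted p = 1.52e-06), with no overlap.

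Other genes of dividing cells followed. Of 21 DNA repair genes 16 rose and 3 fell, with a median of 1.26, led by Brca1 (3.16), Rad51ap1 (2.90) and Rad54l (2.50) of homologous recombination. The DNA damage kinase gene Atm (-0.67) and the base excision gene Apex1 (-0.96) fell. Of 23 nucleotide synthesis enzymes 10 rose and 7 fell. The deoxynucleotide branch rose, with Rrm2 (2.93) and Rrm1 (1.78) of ribonucleotide reductase, Tk1 (2.87) and Tyms (1.6), while Gart (-0.83), Cad (-0.76), Dhodh (-0.51) and Atic (-0.50) of purine and pyrimidine ring synthesis fell. The change of Tyms was 0.46 and that of Cad -0.41 with probe sets averaged. Of 20 DNA methylation and Polycomb genes 9 rose and 5 fell, beside shares of 22.4% and 23.0% over all genes. Uhrf1 (2.77) and Dnmt1 (1.38), which copy methylation onto new DNA, and the histone methyltransferase gene Ezh2 (2.00) rose, and the deacetylase gene Sirt1 (-0.88) fell. Without naive replicate 1 the falls were 3.

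Genes for growth of the ribosome went the other way. Of 31 ribosome biogenesis genes 27 fell and 2 rose, with a median of -0.67. Rrs1 (-1.76 ± 0.12), Tsr1 (-1.74 ± 0.08), Utp20 (-1.72) and Gnl3 (-1.51), assembly factors of the nucleolus, fell most. Tsr1 was at 10.49 and 10.41 in naive cells and at 8.61, 8.74, 8.76 and 8.74 at day 3, without overlap. The abundant nucleolar proteins Ncl (0.40) and Npm1 (0.19) rose. The change of Ncl was -0.04 and that of Npm1 0.39 with probe sets averaged, and the call of Npm1 was lost without either naive array. The E-box CACGTG, the site of Myc and Max, stood in 5 of 26 promoters of the list (19.2%) and in 7.15% of all promoters. By gene it was held by 10.2% of all, 9.12% of those that rose at least 2-fold and 14.4% of those that fell at least 2-fold. Of 18 cytosolic ribosomal proteins 5 fell and 1 rose, and 12 did not pass (median -0.06). The count of falls among them was 2 without naive replicate 2.

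**Figure D3:**
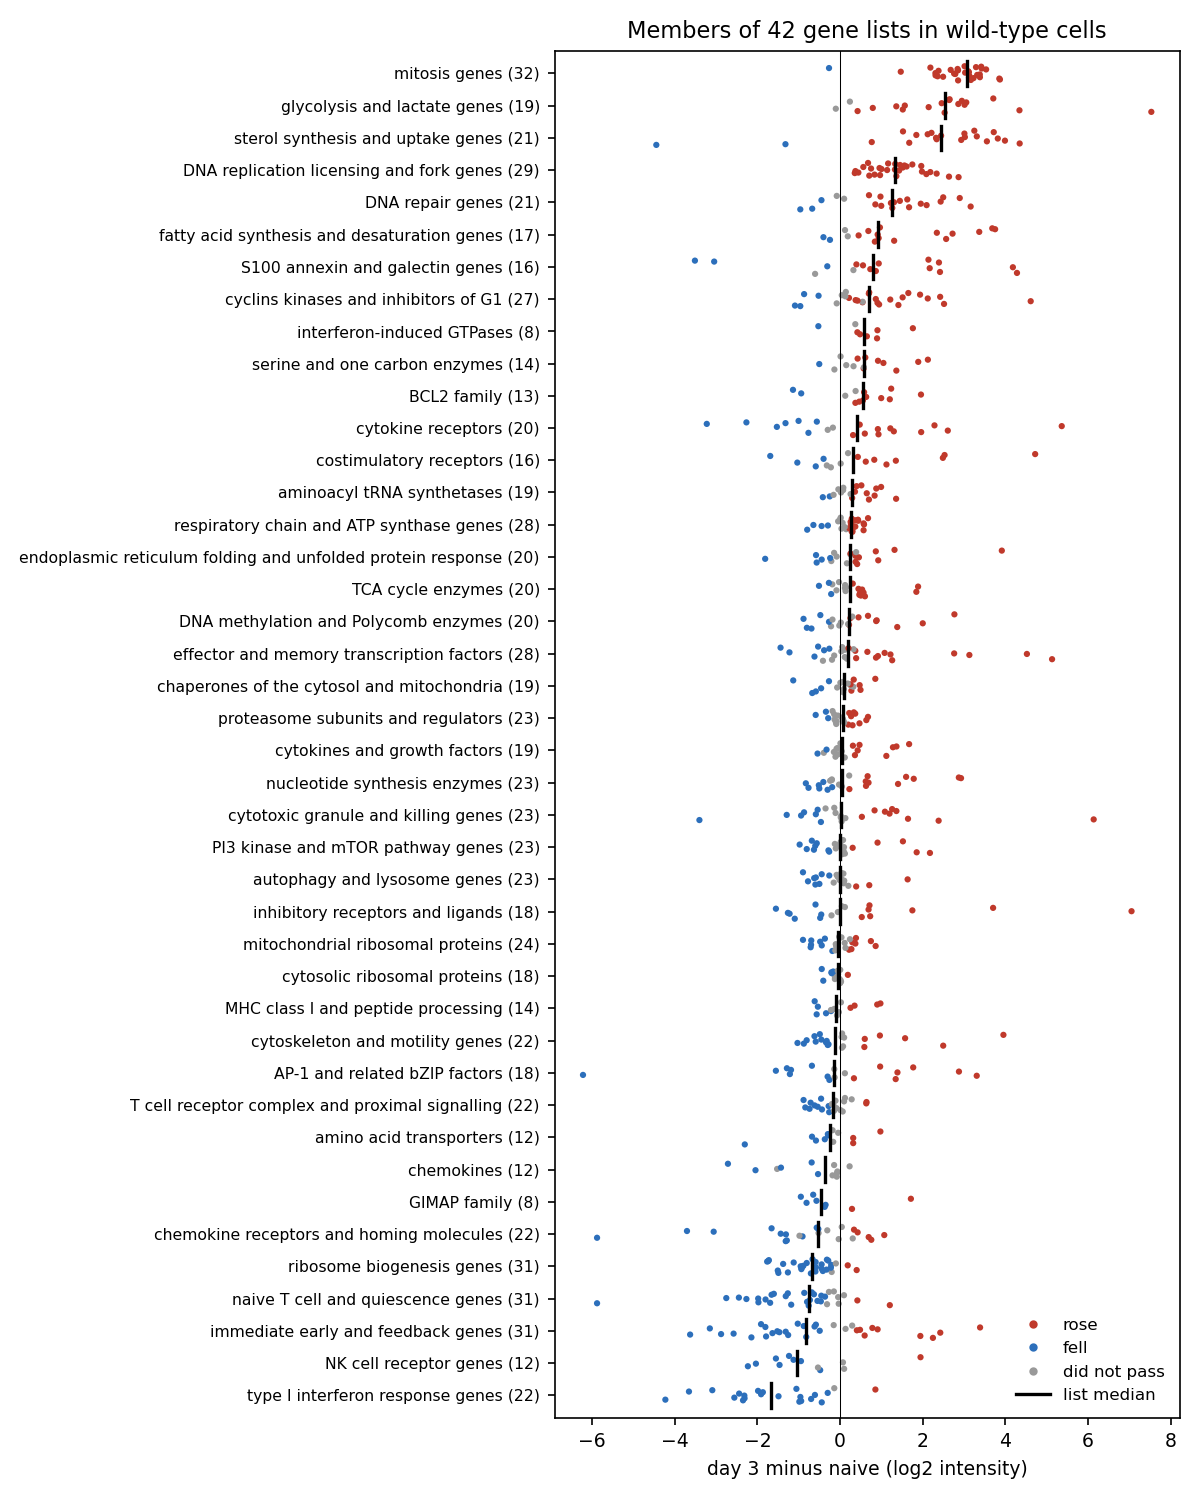
Change of each measured member of 42 gene lists (x axis, day 3 minus naive in log2 intensity), 1 row per list with its number of measured genes, red for risen, blue for fallen and grey for genes that did not pass, and a black bar at the list median. Mitosis genes (median 3.06), glycolysis and lactate genes (2.53) and sterol genes (2.44) lie farthest to the right, and type I interferon response genes (-1.68) farthest to the left.

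Most measured genes of glycolysis rose. Of 19 measured glycolysis and lactate genes 17 rose, 15 of them at least 2-fold, and none fell, with a median of 2.53. The glucose transporter gene Slc2a1 was at 9.24 and 8.93 in naive cells and at 11.85, 11.71, 11.78 and 11.56 at day 3 (2.64 ± 0.14). Hexokinase 2, Hk2, which traps glucose in the cell, was at 6.35 and 6.54 against 10.87, 10.87, 10.87 and 10.52 (4.34 ± 0.26, adjusted p = 2.66e-08). The enzymes Tpi1 (3.71), Pkm (3.05) and Pfkp (3.01) rose further down the pathway. The states did not overlap in Slc2a1 or Hk2. The lactate dehydrogenase B gene Ldhb (-0.10) and the lactate transporter gene Slc16a1 (0.24) did not pass, although Slc16a1 passed on the 6 wild-type arrays alone (limma, adjusted p = 0.0468) and with probe sets averaged (0.30). The mean log2 intensity of the list was 11.08 on day 3 replicate 4 and 11.24 to 11.27 on the other day 3 arrays. Hif1a, which codes for the oxygen-sensitive subunit of the factor that drives many of these genes, rose by 0.87 ± 0.08.

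Mitochondrial metabolism changed less. Of 28 respiratory chain and ATP synthase genes 17 rose and 4 fell, none by 2-fold, with a median of 0.27 and the lowest value for Atp5g1 (-0.80). Of 20 enzymes of the citric acid cycle 10 rose and 3 fell. The malic enzyme gene Me2 (1.89) and the isocitrate dehydrogenase gene Idh1 (1.85) were the 2 that reached 2-fold. The change of Me2 was 1.08 with probe sets averaged. Of 24 mitochondrial ribosomal proteins 7 rose and 8 fell (median -0.05), beside shares of 22.4% and 23.0% over all genes.

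Lipid synthesis rose strongly. Of 21 sterol synthesis and uptake genes 19 rose, 18 of them at least 2-fold, and 2 fell, with a median of 2.44. Cyp51, the sterol demethylase, was at 6.22 and 6.03 in naive cells and at 10.46, 10.59, 10.50 and 10.33 at day 3 (4.35 ± 0.09, adjusted p = 1.75e-12). Fdps (3.99), Idi1 (3.82) and Sqle (3.72), which build the isoprenoid chain and close on sterols, rose similarly. The 2 that fell were Abca1 (9.26 and 9.05 against 4.59, 4.77, 4.45 and 5.03) and Abcg1 (-1.32), which pump cholesterol out of the cell. With the mean of all its probe sets the change of Fdps was 1.97 and that of Abca1 was -1.71. Of 17 genes of fatty acid synthesis and desaturation 13 rose and 2 fell. The desaturases Scd1 (3.75), Scd2 (3.68) and Fads2 (3.37) led, and Cpt1a (-0.40) and Acadm (-0.24) of fatty acid breakdown fell. The call of Cpt1a was lost with the replicate number as a block and without any 1 of the 6 wild-type arrays, and that of Acadm without naive replicate 1.

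The sterol response element is the site of the SREBP factors. Its letters TCACCCCAC, TCACCCGAC or TCACTCCAC, on either strand, stood in 1 of 16 promoters of the sterol list (6.25%) and in 0.986% of all promoters. By gene they were held by 1.26% of all, 1.37% of those that rose at least 2-fold and 0.637% of those that fell at least 2-fold. The match of the list is in Hmgcs1, which codes for the synthase before the rate-limiting step of the pathway and rose by 2.93 ± 0.09 (chr13:119690101-119690400, plus strand).

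Hmgcs1: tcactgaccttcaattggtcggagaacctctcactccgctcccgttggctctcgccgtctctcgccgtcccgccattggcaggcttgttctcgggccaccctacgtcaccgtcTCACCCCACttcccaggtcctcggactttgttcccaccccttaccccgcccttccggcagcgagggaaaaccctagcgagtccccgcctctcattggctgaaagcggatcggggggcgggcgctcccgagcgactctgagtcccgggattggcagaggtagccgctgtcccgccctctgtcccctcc

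Amino acid metabolism showed a partial rise. Of 14 serine and one-carbon enzymes 8 rose and 1 fell, with Psat1 (2.12 ± 0.17) of serine synthesis and Mthfd2 (1.89 ± 0.10) of mitochondrial folate metabolism at the top and the cytosolic Mthfd1 (-0.50) as the fall, which was lost without naive replicate 2. Psat1 was at 8.56 and 8.71 in naive cells and at 10.86, 10.82, 10.85 and 10.53 at day 3. Of 12 amino acid transporters 3 rose and 6 fell. Slc7a5, the light chain of the leucine transporter, was at 8.26 and 8.32 against 9.55, 9.16, 9.42 and 8.93 (0.98 ± 0.19, adjusted p = 0.000754), its partner Slc3a2 rose by 0.32 and the aromatic amino acid transporter Slc16a10 fell by 2.31. Without naive replicate 2 the count of rises was 1, and Slc3a2 was among the lost. The change of Slc16a10 was -0.95 with probe sets averaged.

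Of 19 cytosolic aminoacyl tRNA synthetases, which charge tRNAs with amino acids, 10 rose and 2 fell (median 0.29), led by Cars (1.36, or 0.83 with probe sets averaged), Vars (0.99), Sars (0.88) and Gars (0.84). The amino acid response element TGATGNAA is the site of ATF4 with C/EBP partners. On either strand it stood in 5 of 12 promoters of the list (41.7%) and in 3.97% of all promoters. By gene it was held by 3.24% of all, 2.96% of those that rose at least 2-fold and 3.18% of those that fell at least 2-fold. Not every member of the list with a match passed. The match in Gars, the member with a match that rose most, lies 30 bases before the start of the gene (chr6:55037751-55038050, plus strand).

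Gars: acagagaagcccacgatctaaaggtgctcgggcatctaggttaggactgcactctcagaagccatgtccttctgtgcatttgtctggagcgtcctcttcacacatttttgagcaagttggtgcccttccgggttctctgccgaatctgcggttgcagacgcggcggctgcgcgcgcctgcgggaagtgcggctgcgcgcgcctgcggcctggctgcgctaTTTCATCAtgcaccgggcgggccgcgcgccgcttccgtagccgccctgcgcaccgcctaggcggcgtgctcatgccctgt

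Genes of protein folding in the endoplasmic reticulum were mixed, with 9 of 20 up and 5 down. Trib3, a pseudokinase that is induced by ATF4, rose by 3.91 ± 0.23 and Xbp1 by 1.32, while the co-chaperone gene Dnajb9 fell by 1.81. Of 23 proteasome genes 9 rose and 3 fell, none by 2-fold. The count of rises was 5 without naive replicate 1.

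Cytotoxic genes split between those that rose steeply and those that fell. Of 23 measured genes 9 rose and 7 fell, with a median of 0.02. Gzmb, the granzyme that cleaves caspases in target cells, was at 7.94 and 7.61 in naive cells and at 13.90, 13.90, 13.94 and 13.90 at day 3, a 70.4-fold rise (6.14 ± 0.15, adjusted p = 8.58e-12). The death ligand gene Fasl (2.38), Gzmc (1.64), Serpinb6b (1.36), Stx11 (1.26) and Lta (1.20) also rose. Gzmc lay below the dim line in both states and has close relatives in the granzyme cluster whose transcripts its probe set may also bind.

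Perforin, Prf1, which opens pores in the target membrane, was at 8.76 and 8.55 in naive cells and at 7.74, 7.87, 7.86 and 7.68 at day 3 (-0.87 ± 0.11, adjusted p = 2.85e-05). Gzma was at 10.76 and 10.80 against 7.25, 7.21, 7.29 and 7.76 (-3.40 ± 0.26), with the highest day 3 value on replicate 4. Gzmm (-1.29) and Gzmk (-0.94) fell, but both calls were lost without naive replicate 1 and that of Gzmm also without naive replicate 2. The change of Prf1 was -0.53 with probe sets averaged. In Prf1 and Gzma no day 3 array reached a naive array. Gzma, Gzmm and Prf1 are also expressed by NK cells, and the 4 measured NK cell markers fell between the same arrays, as given above. What part NK cell RNA had in these falls was not tested.

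Of the promoters of cytotoxic genes 1 of 21 (4.76%) held the AP-1 letters TGANTCA, on either strand, against 7.81% of all promoters. By gene they were held by 7.54% of all, 6.27% of those that rose at least 2-fold and 7.52% of those that fell at least 2-fold. The match of the list is in Gzmb, 58 bases before the start of the gene (chr14:56262285-56262584, minus strand).

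Gzmb: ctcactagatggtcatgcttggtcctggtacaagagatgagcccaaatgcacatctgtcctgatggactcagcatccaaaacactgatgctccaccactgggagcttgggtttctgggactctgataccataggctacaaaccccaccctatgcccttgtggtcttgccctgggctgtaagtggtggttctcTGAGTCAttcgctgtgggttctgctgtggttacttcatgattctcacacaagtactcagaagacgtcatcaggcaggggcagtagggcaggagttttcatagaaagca

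Most cytokine genes were dim or did not pass. Of 19 measured genes 8 rose and 2 fell. Ifng, the signature cytokine of cytotoxic T cells, was at 5.70 and 5.90 in naive cells and at 6.91, 7.0, 6.93 and 6.84 at day 3 (1.12 ± 0.09, adjusted p = 3.27e-07), without overlap. Mif (1.36 ± 0.06), an abundant secreted factor, Tgfb3 (1.67), which was dim in naive cells, and Lif (1.28) rose as well. The change of Mif was 0.62 and that of Lif 0.78 with probe sets averaged. Tnf was at 6.55 and 6.08 against 6.29, 6.30, 6.35 and 6.35 and did not pass, and Il2 lay below the dim line on all 6 arrays. The count of rises was 5 without day 3 replicate 3.

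No chemokine rose, and 5 of 12 fell. Ccl5, which draws T cells and monocytes, was at 12.17 and 12.10 in naive preparations and at 10.10, 9.94, 10.13 and 10.18 at day 3 (-2.05 ± 0.27). Cxcl9 (-2.71), Cxcl10 (-1.43) and Xcl1 (-0.69) also fell, and Cxcl9 ended below the dim line. The change of Cxcl9 was -1.53 with probe sets averaged. Ccl5 is made by NK cells and memory T cells too, and Cxcl9 and Cxcl10 by macrophages. The markers of NK cells and macrophages fell between the same arrays, as given above, and their part in these falls was not tested.

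Cytokine receptor genes moved in both directions. Of 20 measured genes 11 rose and 7 fell. Il2rb, a signalling chain of the IL-2 receptor, rose by 2.29 ± 0.17 beside Il2ra, Il12rb2 rose by 2.61 and Il10ra by 1.96, or 0.96 with probe sets averaged. Il7r was at 12.54 and 12.82 in naive cells and at 10.31, 10.45, 10.35 and 10.55 at day 3 (-2.27 ± 0.12, adjusted p = 9.93e-09), a 4.81-fold fall that left it well above the dim line. Il6ra (-3.22), Il27ra (-1.53) and the shared signalling chain Il6st (-1.32) fell.

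Of 16 costimulatory receptors 8 rose and 4 fell. Beside Tnfrsf9, these were led by Tnfrsf4, or OX40 (2.53 ± 0.10), Tnfrsf18, or GITR (2.49), Icos (1.35) and Cd28 (1.12). Tnfrsf25 fell by 1.69. Cd69, which marks the first hours of activation and holds cells in the tissue, was at 10.25 and 10.32 in naive cells and at 9.39, 9.15, 9.29 and 9.19 at day 3 (-1.03 ± 0.12). Of 18 inhibitory receptors and ligands 7 rose and 7 fell. Lag3, a receptor for class II molecules, was at 5.13 and 4.92 against 8.67, 8.74, 8.78 and 8.72 (3.70 ± 0.16), Entpd1 rose by 1.75, and Pdcd1, or PD-1 (0.71), and Havcr2, or Tim-3 (0.69), rose less. The call of Havcr2 was lost without naive replicate 1, and the change of Entpd1 was 1.04 with probe sets averaged. Klrg1 (-1.55), Cd6 (-1.26), Cd5 (-1.22) and Btla (-1.10) fell.

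Of 22 homing receptors 11 fell, 5 rose and 6 did not pass. Itgae, the integrin chain that binds E-cadherin, was at 10.55 and 10.43 in naive cells and at 6.69, 6.89, 6.72 and 6.85 at day 3 (-3.70 ± 0.24). Itga4, the alpha chain of integrins that bind vessel walls, was at 10.22 and 10.36 against 7.25, 7.27, 7.13 and 7.28 (-3.06 ± 0.10). S1pr1, the receptor for egress from lymphoid organs, fell by 1.66 ± 0.13. Ccr7, which guides cells into lymph nodes, was at 11.36 and 11.30 against 11.24, 11.31, 11.38 and 11.25, with overlapping states and no pass (-0.03 ± 0.10, adjusted p = 0.819). Cd44, an adhesion receptor of activated and memory T cells, was at 9.57 and 9.72 against 10.32, 10.35, 10.32 and 10.35 (0.69 ± 0.10), and Cxcr4 rose by 1.07 ± 0.34, a call that was lost without either naive array. The count of rises in the list was 3 without naive replicate 2.

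Transcription factors and receptors of naive T cells fell as a group. Of 31 measured genes 23 fell, 13 of them at least 2-fold, and 2 rose, with a median of -0.76. Klf2, which keeps T cells quiescent and recirculating, was at 12.47 and 12.25 in naive cells and at 10.36, 10.36, 10.33 and 10.48 at day 3 (-1.98 ± 0.13). Klf3 (-2.75), Klf4 (-2.45), Id3 (-1.80) and Lef1 (-1.31) fell too, Klf3 by 1.68 with probe sets averaged. Bcl2, the survival factor that interleukin 7 sustains in resting cells, was at 10.23 and 10.14 against 11.55, 11.44, 11.45 and 11.12 (1.20 ± 0.14), so it rose while Il7r fell, and Foxo3 rose by 0.42, or 0.22 with probe sets averaged. Tcf7 was not analysed here.

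Of 28 transcription factors of effector and memory cells 13 rose and 6 fell. Irf4, which acts with AP-1 dimers in activated lymphocytes, was at 6.60 and 6.35 in naive cells and at 9.59, 9.58, 9.73 and 9.51 at day 3 (3.13 ± 0.15, adjusted p = 3.09e-09). Nfil3 (4.52 ± 0.17) and Prdm1, or Blimp-1 (2.76 ± 0.15), rose beside Bhlhe40. Several well known members did not pass in the fit to all 13 arrays. Tbx21, or T-bet, was at 7.98 and 7.67 against 8.12, 8.08, 8.13 and 8.28 (0.33 ± 0.17, adjusted p = 0.132), and its states did not overlap. It passed on the 6 wild-type arrays alone (limma, adjusted p = 0.0293) and with array weights (limma, adjusted p = 0.0497). Eomes was at 9.60 and 9.82 against 9.77, 9.88, 9.85 and 9.99 (0.17 ± 0.32, adjusted p = 0.711), and its states overlapped. Batf was at 9.19 and 9.36 against 8.63, 8.80, 8.83 and 9.19 (-0.41 ± 0.28, adjusted p = 0.251), with the highest day 3 value close to the lower naive one. On the 6 wild-type arrays alone Batf passed as a fall (limma, adjusted p = 0.047). Tox (-1.44), Runx1 (-1.22), Ikzf1 (-0.62) and Zeb2 (-0.53) fell. The change of Runx1 was -0.50, that of Ikzf1 -0.38 and that of Zeb2 -1.7 with probe sets averaged.

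**Figure D4:**
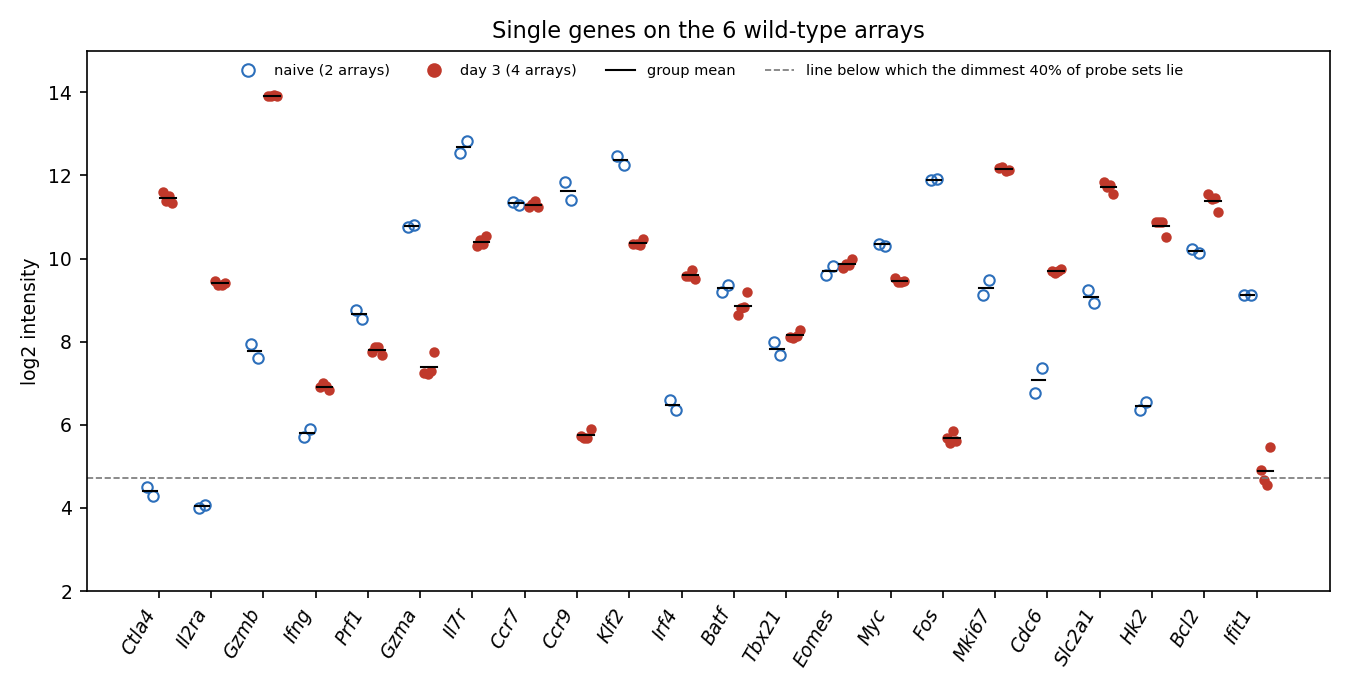
Log2 intensity of 22 genes on the 2 naive (open circles) and 4 day 3 (filled circles) wild-type arrays, with group means as bars and the dim line dashed. Gzmb lies at 7.94 and 7.61 in naive cells and at 13.90 to 13.94 at day 3, whereas the points of Ccr7 and of Eomes overlap between the states.

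The AP-1 family changed its members. Of 18 genes of AP-1 and related bZIP factors 7 rose and 8 fell. Jun (-1.55 ± 0.11) and Junb (-1.19 ± 0.12) fell beside Fos. Crem, a cyclic AMP response factor, was at 6.09 and 6.15 in naive cells and at 9.60, 9.35, 9.51 and 9.23 at day 3 (3.31 ± 0.10), and Jdp2 (2.88), Maff (1.77), Fosl2 (1.39) and Batf3 (1.26 ± 0.11) rose. The change of Crem was 1.55 and that of Jdp2 1.49 with probe sets averaged. Of 31 immediate early and feedback genes 19 fell and 9 rose, with a median of -0.82. Egr1 was at 10.98 and 10.62 in naive cells and at 7.13, 7.04, 7.05 and 7.46 at day 3 (-3.63 ± 0.14), and Rgs2 (-3.15), Egr2 (-2.88) and Egr3 (-2.58) fell as well. The feedback genes of cytokine and MAP kinase signalling Socs2 (3.39 ± 0.26), Ier3 (2.42), Cish (2.25) and Dusp4 (1.94) rose, Socs2 from 6.5 and 6.47 to 9.92, 9.86, 9.94 and 9.76. The change of Socs2 was 2.03 and that of Egr3 -1.20 with probe sets averaged.

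Type I interferon response genes fell almost as a block. Of 22 measured genes 20 fell, 13 of them at least 2-fold, 1 rose and 1 did not pass, with a median of -1.68. Ifit1, an RNA-binding antiviral protein, was at 9.12 and 9.12 in naive preparations and at 4.91, 4.66, 4.54 and 5.46 at day 3 (-4.23 ± 0.21, adjusted p = 3.89e-09). Oasl2 (-3.66), Rtp4 (-3.09) and Irf7 (-2.56) fell next, Rtp4 by 1.89 with probe sets averaged, and Stat2 (0.85) rose. The letters GAAANNGAA of the interferon response element, on either strand, stood in 9 of 16 promoters of the list (56.2%) and in 8.56% of all promoters. By gene they were held by 8.70% of all, 7.30% of those that rose at least 2-fold and 12.6% of those that fell at least 2-fold. Interferon-induced GTPases, which answer mainly to interferon gamma, went up in 6 of 8 cases and down in 1. Iigp1 rose from 8.35 and 8.60 to 10.09, 10.18, 9.86 and 10.83 (1.76 ± 0.25) and Irgm1 fell by 0.53. In genes of class I presentation 4 of 14 rose, among them Tap1 (0.98, or 0.41 with probe sets averaged) and Psmb9 (0.90), and 5 fell.

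Genes of NK receptors fell in 8 of 12 cases, with Klra7 (-2.23) and Klrc1 (-2.04) at the bottom, beside the fall of the NK cell markers. The 1 that rose was Klrk1, or NKG2D, from 6.98 and 7.20 to 8.90, 9.0, 9.04 and 9.19 (1.95 ± 0.14, adjusted p = 1.58e-07). With the probe set that was brightest over the 6 wild-type arrays, the change of Klra7 was 0.03, and both of its means lay below the dim line.

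Among S100, annexin and galectin genes 11 of 16 rose and 3 fell. Anxa2, which binds membranes and actin, was at 8.56 and 8.28 in naive cells and at 12.70, 12.72, 12.77 and 12.62 at day 3 (4.28 ± 0.16). Lgals3, a galectin, rose from 8.30 and 8.62 to 12.63, 12.60, 12.73 and 12.61 (4.18 ± 0.23), and Anxa4 (2.42) and S100a6 (2.39) rose too. The change of Anxa2 was 1.87 with probe sets averaged. S100a9 (-3.51) and S100a8 (-3.05) fell. They are also counted in the neutrophil list above. Without naive replicate 1 no gene of the S100, annexin and galectin list fell. In the BCL2 family 9 of 13 rose and 2 fell. Bcl2l2 (1.96), the death-promoting Pmaip1 (1.24) and Bcl2l1 (1.0) rose beside Bcl2. The change of Bcl2l2 was 0.84 and that of Bcl2l1 0.54 with probe sets averaged. Mcl1, the other main survival factor of T cells, was at 12.35 and 12.33 in naive cells and at 11.14, 11.13, 11.24 and 11.30 at day 3 (-1.14 ± 0.07).

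The receptor complex itself changed less. Of 22 genes of the T cell receptor complex and its proximal kinases 10 fell and 2 rose, none by 2-fold, with Fyn (-0.84), Tec (-0.88) and Prkcq (-0.71) among the falls and Plcg1 (0.63) and Ptpn22 (0.64) as the rises. The change of Fyn was -0.50 with probe sets averaged, and Plcg1, with a change of 0.16, did not pass (limma, adjusted p = 0.227). The count of falls was 6 without naive replicate 1. Cd3e was at 10.12 and 9.94 against 9.80, 9.89, 9.89 and 9.95 and did not pass. Of 23 genes of the PI3 kinase and mTOR pathway 5 rose and 8 fell, with the mTOR inhibitor gene Ddit4 (2.17 ± 0.15) and the translation repressor gene Eif4ebp1 (1.85) highest and Rictor (-0.98, or -0.61 with probe sets averaged) lowest. GIMAP genes, small GTPases of lymphocyte survival, fell in 6 of 8 cases, and Gimap7 rose by 1.71 ± 0.16. Without naive replicate 1 the falls were 3. Of 22 cytoskeleton genes 6 rose, led by the tubulin gene Tubb6 (3.95 ± 0.25) and the actin-capping gene Capg (2.50), and 11 fell. The change of Tubb6 was 2.12 with probe sets averaged. Of 19 chaperone genes 6 rose and 5 fell, and of 23 autophagy and lysosome genes 3 rose and 8 fell. Over all genes 22.4% rose and 23.0% fell, and the mixed counts of the chaperone and the autophagy and lysosome lists were not tested against these shares.

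Many genes are read by several probe sets, and these did not always move together. Of 34945 probe sets 7172 rose (20.5%) and 7756 fell (22.2%) when each was tested by itself. For 9010 genes with several probe sets, 6053 had at least 1 that passed, and in 505 genes (5.6%) at least 1 rose and at least 1 fell. Without naive replicate 2 these were 300 genes. All probe sets rose in 890 genes and all fell in 889. Only 7 genes had probe sets that moved at least 2-fold in each direction.

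The 10 named genes with the widest gap show how a gene can be called either way. Tsc22d1, which codes for long and short isoforms of a leucine zipper protein, had 4 probe sets that fell, 3 of them by 4.97, 4.33 and 4.18 on the log2 scale, 2 that rose, by 0.66 and 0.59, and 1 that did not pass. Ccnd3, the D cyclin of lymphocytes, rose by 1.41 and 0.74 with 2 probe sets and changed by -1.61 with the other. Of the 5 probe sets of Snhg1, a host gene of small nucleolar RNAs, 3 rose (1.31, 1.08 and 0.71) and 2 fell (-2.02 and -1.45). Csnk1d, a casein kinase of the circadian clock, rose with 2 probe sets (1.66 and 1.53) and fell with 3 (-0.96, -0.89 and -0.77). In the kinase gene Sik1 the changes were 0.48 and -2.98, and in Dleu2 they were 1.64, -2.01 and -2.09. The remaining genes were Marchf1, Cttn, Trp53inp2 and Ssh1, with gaps of 3.61, 3.50, 2.76 and 2.63. In each of these 10 genes the probe sets passed in opposite directions on the same 6 arrays. Which transcripts each probe set reads was not analysed here.

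**Figure D5:**
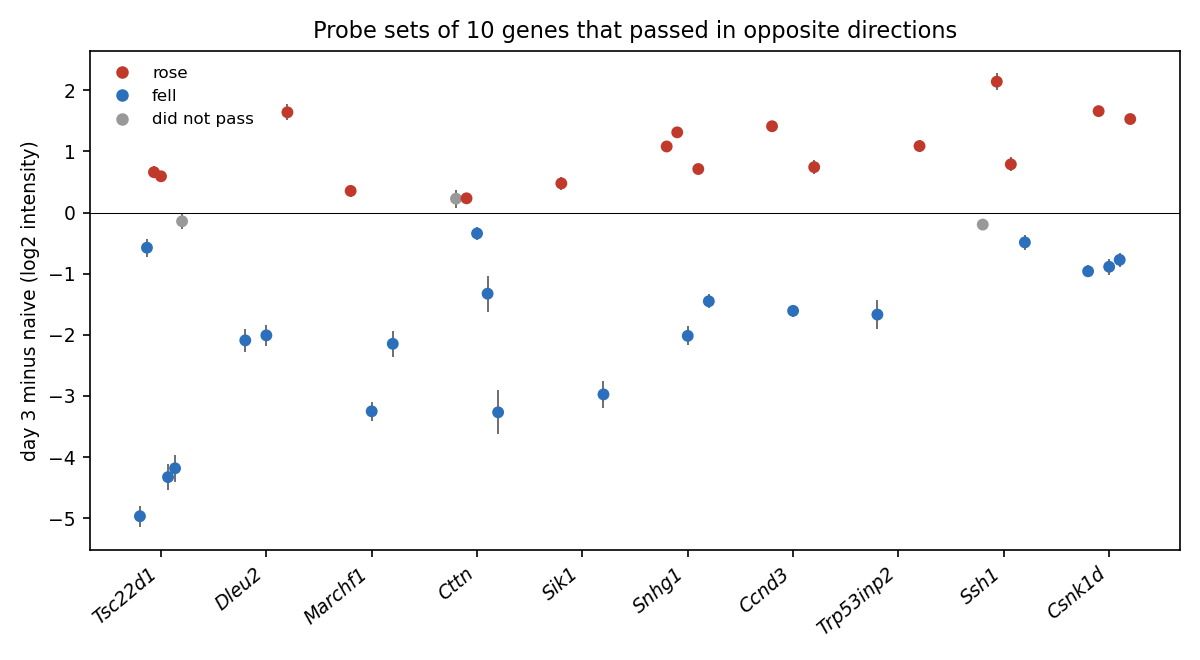
Change of each probe set of 10 genes (y axis, day 3 minus naive in log2 intensity, bars give the SE), red for risen, blue for fallen and grey for probe sets that did not pass. Each gene has points on both sides of zero, with the widest gap in Tsc22d1 (from -4.97 to 0.66).

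The arrays of a state differed from each other in a limited set of genes. Of the 500 genes with the largest standard deviation over the day 3 arrays, replicate 4 was the farthest from the median in 304, and replicates 1, 2 and 3 in 74, 58 and 64. The named genes of widest spread did not all move the same way on it. Iigp1 and Ifit1bl1 were highest on replicate 4 (10.83 and 9.38, against 9.86 to 10.18 and 8.45 to 8.55), whereas Ifitm3 was lowest on it (5.55 against 6.27 to 6.74). The chemokine receptor gene Cxcr3 was at 8.65, 8.88, 8.68 and 9.56, and its change from naive values of 9.52 and 10.33 did not pass in the fit to all arrays (-0.98 ± 0.47, limma, adjusted p = 0.110) but passed on the 6 wild-type arrays alone (limma, adjusted p = 0.0257). Fscn1, an actin-bundling gene, was at 7.36, 7.07, 7.16 and 6.07, and its fall (-0.89) was lost with the mean of all its probe sets (-0.05), on the 6 wild-type arrays alone and without either naive array or day 3 replicate 4.

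The naive arrays differed by a median of 0.11 over the 11698 genes above the dim line, and 28 of these differed by at least 1. The widest gap was that of Gatm, an enzyme of creatine synthesis, at 5.08 and 7.59. The digestive protease genes Cela1 (6.74 and 8.42), Ctrl and Ctrb1, which are made by the exocrine pancreas, were higher on replicate 2 by 1.68, 1.57 and 1.5. Without naive replicate 1 Gatm and Ctrb1 passed as falls, and without naive replicate 2 the fall of Ctrl did not pass. What part RNA of the pancreas had in these gaps was not tested. Without naive replicate 2 the numbers of risen and fallen genes were 3337 and 3564, and without replicate 1 they were 3606 and 3656.

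The Batf-/- arrays, which share no array with the wild-type change, give the same change without Batf, a bZIP partner of Jun and Irf4. The difference between the 2 changes passed for 118 genes (0.649%), and 104 of these had passed in the wild type. Of those that rose in the wild type, 60 rose more there than without Batf and 8 rose less. Of those that fell, 20 fell more and 16 fell less. These genes were chosen by their wild-type change, which also enters the difference, so the counts favour larger changes in the wild type. Klrk1 rose by 1.95 in wild-type cells and changed by -0.38 in Batf-/- cells, a difference of -2.32 ± 0.19 (limma, adjusted p = 0.000352). Slc15a2 fell by 6.18 in the wild type and by 2.73 without Batf (difference 3.45 ± 0.30), and Ccr9 by 5.88 and 4.44 (1.44 ± 0.22). Ctla4 rose by 7.05 and 5.88 (-1.17 ± 0.17), Tnfrsf4 by 2.53 and 1.54 (-0.99 ± 0.14), and S100a6 by 2.39 and 0.80 (-1.6 ± 0.21). Il7r fell less in the wild type, by 2.27 against 3.18 (-0.91 ± 0.17), and Myc fell by 0.87 in the wild type and stood at -0.17 without Batf, where it did not pass. For Gzmb (6.14 and 5.67), Il2ra (5.36 and 5.18), Irf4 (3.13 and 2.65), Ifng (1.12 and 0.70) and Mki67 (2.85 and 2.80) the difference did not pass. The number of differences varied between fits, with 72, 66 and 62 without wild-type day 3 replicates 1, 2 and 3, 50 with the replicate number as a block and 542 with array weights.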

How the data were processed

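Expression was measured on 13 Affymetrix arrays. The deposited values are linear intensities, which the authors normalised with RMA per the submitters' processing notes; the version is not given in the sources used here. They were taken to log2 with no pseudocount. Of 45101 probe sets 932 name several genes and 9224 none or are controls, and 13 control probe sets with a symbol were left out. Entrez identifiers of 34741 probe sets matched RefSeq (GRCm38.p6). The 4 group means were estimated in R 4.3.3 by limma 3.58.1 across all 13 arrays (lmFit and eBayes, 9 residual and 3.702 prior degrees of freedom), so the spread is pooled over wild-type and Batf-/- arrays. The fit was tested on simulated data.

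Named genes were the 15 largest rises and 15 largest falls that passed with groups that did not overlap, up to 4 changes per direction of each list with members that passed against the direction of most of their list, a fixed set of T cell genes, the 10 widest probe set gaps, and the genes of widest spread. The genes Ccnb2, Cd28, Cd3e, Gins3, Havcr2, Hif1a, Hmgcs1, Id3, Junb, Ldhb, Lef1, Lta, Pdcd1, Pfkp, Slc16a1 and Stx11 were added after their values were seen. Members and lists were chosen with earlier results of these data known. Deviations of arrays with the same replicate number correlated at -0.332 to 0.119 between groups, and those with different numbers at -0.155 to 0.332. The deviations of the 2 wild-type naive arrays mirror each other, so these values cannot decide whether a number marks a shared batch. Alternatives changed the arrays fitted, the normalisation, the dim filter, the probe set of a gene, the spread estimate, array weights and the minimum change, and left out each wild-type array in turn.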

Additional observations from a re-analysis of the deposited data

Results flagged for a closer look

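In the 4 wild-type day 3 arrays, 16 of 241 genes tested had 1 array that stood apart from the other 3, and in 12 of these it was replicate 4. Chance sets an array apart in about 1 in 20 groups. Replicate 4 was low for Bnip3 (12.39, others 12.65 to 12.70), Hk2 (10.52, others 10.87), Junb (7.87, others 8.30 to 8.38), Klrc1 (5.30, others 5.76 to 5.83), Nfil3 (9.26, others 9.58 to 9.60), Plod2 (9.31, others 9.68 to 9.76) and Psat1 (10.53, others 10.82 to 10.86). It was high for Cd247 (11.06, others 10.92 to 10.93), Cd6 (8.70, others 8.58 to 8.60), Gzma (7.76, others 7.21 to 7.29), Ifit1bl1 (9.38, others 8.45 to 8.55) and Iglv1 (3.99, others 3.55 to 3.60, all dim). Atm was low on replicate 3 (8.63, others 8.92 to 8.98), Gzmb high on replicate 3 (13.94, others 13.90), Tox low on replicate 2 (6.71, others 6.94 to 6.98) and Tsr1 low on replicate 1 (8.61, others 8.74 to 8.76).

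The mean log2 intensity of 6 of 54 lists also had an array apart. Replicate 4 was low for glycolysis and lactate genes (11.08, others 11.24 to 11.27) and costimulatory receptors (8.43, others 8.53 to 8.54), and high for interferon-induced GTPases (10.95, others 10.54 to 10.59) and for markers of monocytes and macrophages (4.89, others 4.77 to 4.78). Replicate 3 was high for cytokines (5.66, others 5.60 to 5.61) and replicate 2 low for plasma cell markers (4.43, others 4.6 to 4.64).

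For 17 named genes the Batf-/- change differed from the wild-type change in the interaction test (limma, adjusted over all 18193 genes). Batf-/- minus wild-type, the difference was -2.32 for Klrk1, -1.6 for S100a6, -1.17 for Ctla4, -1.11 for Egln3, -1.11 for Batf3, -1.09 for Aldoc, -1.09 for Bhlhe40, -0.99 for Tnfrsf4 and -0.91 for Il7r. It was -0.62 for Cdkn2c and, among sterol genes, -0.65 for Cyp51, -0.68 for Fdps, -0.58 for Idi1 and -0.63 for Sqle. It was above zero for Slc15a2 (3.45), Ccr9 (1.44) and Myc (0.70).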

How the results depend on the processing

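With no minimum change tested, 4081 genes rose and 4177 fell, and both counts stayed within 1.5 times of these under the alternatives run, except the test against a 2-fold change (653 and 417). Without each wild-type array in turn 3337 to 3905 rose and 3564 to 4046 fell. With the replicate number as a block, 3666 rose, 3803 fell, 50 changes differed by genotype and 400 genes had probe sets in opposite directions. The 118 genotype differences became 542 with array weights, 1 in the test against a 2-fold change, and were lowest and highest at 62 and 103 without 1 wild-type array. Genes with opposite probe sets, 505, were 3 in the 2-fold test, 300 to 446 without 1 array, and 461 without probe sets of suffix x or s, an alternative chosen after seeing the data. With the mean of all probe sets, Csnk1d (0.11), Ncl (-0.044), Sik1 (-1.25), Snhg1 (-0.072), Ssh1 (0.56) and Trp53inp2 (-0.29) turned sign, and with the probe set brightest in wild-type arrays Klra7 (0.031) and Marchf1 (0.35) did. The cause was not tested. Of 229 named genes that passed, 16 lost the call without 1 array and 18 in any fit but the 2-fold test. The median change of all genes was 0.01 to 0.05 throughout. Signal over background limits 6142 genes that were dim in both states.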
